A study of Mus musculus with 9 samples.

Results

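Spp1, Gpnmb, Lgals3, Fabp5, Cst7, Igf1, Lpl, Clec7a, Axl and Acp5 are 10 genes that microglia, the resident macrophages of the retina and brain, switch on as they become phagocytic around damaged neurons, a condition known as the disease-associated state. They were examined in 9 mouse retinal RNA-seq libraries, as 10 of 16367 genes in the table of sorted cells and 10 of 17035 in the table of primary cultures. The set was chosen from known disease-associated microglia genes because their values were high in the libraries of ocular hypertension and in sham replicate 3, so their levels and their differences between those groups are given below as a description, without a test. Sham replicate 3 is set apart throughout.

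The sorted libraries came from WT mice in 3 sham and 3 ocular hypertension (OHT) samples, each a pool of 4 neural retinas. Ocular hypertension, the pressure rise that defines experimental glaucoma, was produced by placing 1.2 µL of silicone oil in the anterior chamber of both eyes, where it blocks aqueous outflow, and sham eyes received a corneal incision. Retinas were dissociated with papain, dead cells were removed, and cells were captured on magnetic beads with an antibody to GLAST (ACSA-1), a glutamate transporter of Müller glia and astrocytes. The labels state neither the animals' age nor the time after oil. The 3 primary cultures were untreated, passaged cells grown from retinas of C57BL/6J pups aged 8 to 10 days, and the labels call both kinds of sample Müller glia. Nothing in the labels says whether the cultures came from separate litters, and each p-value below measures only the spread between pools. A bead capture enriches cells and does not purify them, and a pool hides differences between its animals.

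Library totals were 37822145 to 44472124 reads in sham, 47135569 to 53592052 in OHT and 66309309 to 76745389 in culture. Values are normalised counts, which are reads divided by a size factor for each library, or ppm, which are a gene's reads per 1000000 reads of its library, where genes are compared by length or tables are set side by side. The markers did not match the label in a simple way. In the sorted libraries 12 genes shared by microglia and macrophages (such as Aif1, Fcer1g and C1qa) summed to 23751 to 54394 ppm, against 1533 to 7693 ppm for 8 Müller glia markers (such as Glul, Rlbp1 and Aqp4). Of the 14403 genes averaging 10 normalised counts or more, 0 differed between OHT and sham (limma with Benjamini-Hochberg adjustment, adjusted p under 0.05, 0.00% of genes), and 1680 had an unadjusted p under 0.05 (11.7%).

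Microglia survey the retina with fine processes and hold themselves in a homeostatic state marked by genes such as Tmem119 and P2ry12. When neurons or photoreceptors degenerate, the lipid receptor Trem2 and its partner Tyrobp relay contact with debris and lipid, and microglia enlarge their lysosomes, take up and store lipid, and secrete factors that act on surrounding cells. The genes described here cover those steps: secreted factors (Spp1, Igf1), surface receptors and membrane proteins (Clec7a, Axl, Gpnmb), a sugar-binding protein (Lgals3), lipid handling (Lpl, Fabp5), and enzymes or inhibitors of the lysosome (Cst7, Acp5). The same genes are read by other cells too. Axl and Spp1 are well known in fibroblast-like cells, and Gpnmb in pigment cells.

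Promoter sequence is shown for the 3 members with the largest OHT minus sham difference, Spp1, Acp5 and Gpnmb, because these members were high in the same libraries. RefSeq windows (assembly GRCm38.p6) were found for 8 of the 10 members, and no window was found for Fabp5 or Lpl. The sequences read 5′ to 3′ in the direction of the gene and end at the base before its start: Spp1 at chr5:104434861-104435110 (+ strand), Gpnmb at chr6:49036268-49036517 (+ strand) and Acp5 at chr9:22130649-22130848 (− strand), whose last 50 bases are left out because an annotated exon begins there. Capitals mark the letters of a searched motif, GAGGAAGT of the myeloid factor PU.1 in Spp1 and, in Acp5, CACATGA, which is TCATGTG, the M-box core read by MITF-family factors, on the other strand.
Spp1: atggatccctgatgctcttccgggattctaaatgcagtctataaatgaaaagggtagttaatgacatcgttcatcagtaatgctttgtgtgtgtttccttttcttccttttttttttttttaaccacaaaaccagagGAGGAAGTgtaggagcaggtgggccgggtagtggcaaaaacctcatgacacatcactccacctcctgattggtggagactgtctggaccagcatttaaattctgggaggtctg
Acp5: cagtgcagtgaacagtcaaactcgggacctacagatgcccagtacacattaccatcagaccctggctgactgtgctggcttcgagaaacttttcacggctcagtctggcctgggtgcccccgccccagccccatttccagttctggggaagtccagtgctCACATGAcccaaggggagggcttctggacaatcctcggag
Gpnmb: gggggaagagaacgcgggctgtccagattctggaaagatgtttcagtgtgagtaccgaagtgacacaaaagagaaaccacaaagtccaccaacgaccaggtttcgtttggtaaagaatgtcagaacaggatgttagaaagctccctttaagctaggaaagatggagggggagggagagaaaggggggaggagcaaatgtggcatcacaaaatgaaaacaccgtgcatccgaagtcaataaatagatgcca

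The 250 bases before each start were searched on both strands. GAGGAAGT was present in 2.44% of 32851 windows and in 1 of the 12 member windows, beginning 113 bases before the start shown for Spp1. TCATGTG was present in 3.25% of windows and in 1 of the 12 member windows, 90 bases before the start shown for Acp5. The AP-1 motif TGANTCA was present in 6.75% of windows and in 1 of the 12 member windows, that of Igf1. The E-box CACGTG was present in 6.02% of windows and in 0 of the 12. The Gpnmb window holds none of these letters. Bases following the start shown for Gpnmb were not found in its annotated transcripts (GENCODE M21), while those following the starts shown for Spp1 and Acp5 were. None of the 4 motifs contains another, and a match describes letters only.

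In normalised counts all 10 members were higher in every OHT library than in sham replicates 1 and 2, a pattern held by 12.9% of all tested genes. For 8 of the 10 the 3 OHT libraries also stood above sham replicate 3, where 9.26% of all genes did, and the exceptions were Lgals3 and Axl. Both counts depended on the scaling. In ppm, a scale set beside it after the data were seen, 9 of the 10 stood above sham replicates 1 and 2 (7.88% of genes) and 5 above all sham libraries (5.44%): Spp1, Fabp5, Igf1, Clec7a and Acp5. In OHT replicate 1 Gpnmb (915 ppm against 1159 in sham replicate 3), Cst7 (72.3 against 96.6) and Lpl (65.6 against 67.8) were then below that library, and Axl, at 98.5 ppm, was under all 3 sham libraries. Overlap and folds between libraries below are in normalised counts unless ppm is named. Sham replicate 3 and all OHT libraries together stood above sham replicates 1 and 2 for all 10, and for 7.46% of genes. The log2 difference was at least 1 for 9 members (9.75% of genes) and at least 2 for 8 (2.19%). Since these levels chose the members, nothing is read from the counts. In bulk libraries more cells of a type and more RNA per cell cannot be told apart. The median member was 3.01 higher in OHT than in sham on the log2(value + 1) scale, beside a median of −0.12 over all genes, and 4.20 higher when sham replicate 3 was left out.

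Sham replicate 3 was above both other sham libraries for all 10 members and below the OHT mean for 9. It was at least 4-fold above the higher of sham replicates 1 and 2 for 7 members, where 2.65% of all genes were, and at least 2-fold above for 8, where 6.38% were. Placed on the log2 line from the mean of sham replicates 1 and 2 (0%) to the mean of OHT (100%), it sat at 84.0% for the median member, from 64.8% for Clec7a to 119% for Axl. Its label is sham, and it was kept as labelled. Its homeostatic and other markers are given further below beside the list they belong to.

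**Figure D1:**
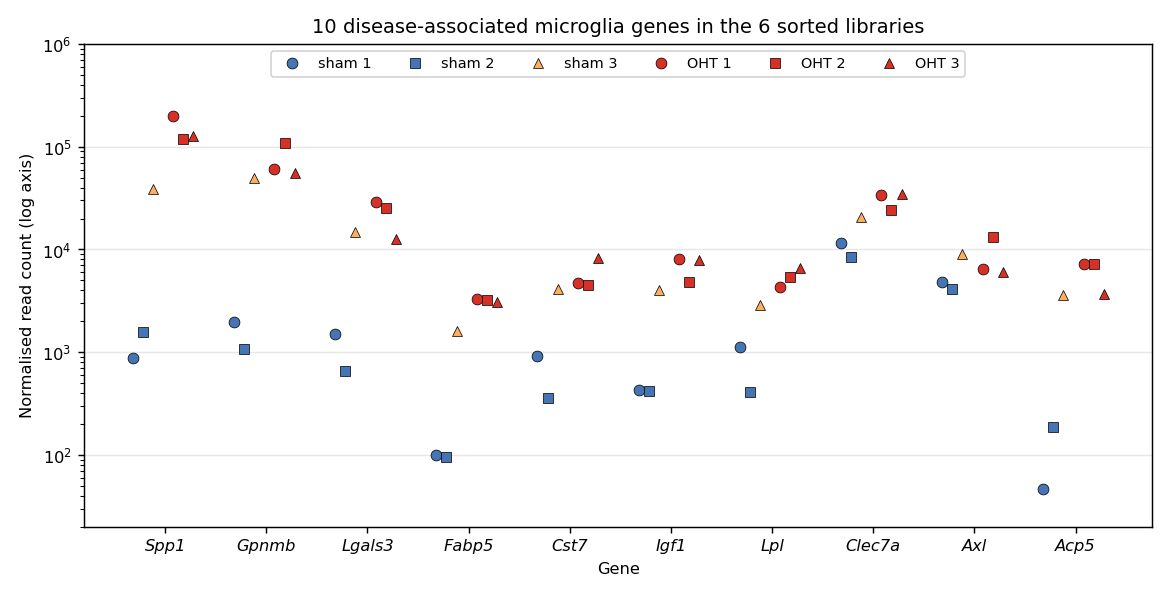
Normalised count of each of the 10 genes in the 6 sorted libraries, on a log axis, with 1 point for each library and sham replicate 3 in its own colour. Spp1 runs from 874 to 200853 and its OHT points stand clear of sham replicate 3, while Axl has sham replicate 3 among its OHT points.

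Spp1 encodes osteopontin, a secreted phosphoprotein that binds integrins and CD44 and is a hallmark of phagocytic microglia. Its normalised counts were 874, 1556 and 38610 in sham replicates 1, 2 and 3 and 200853, 118025 and 125904 in OHT replicates 1, 2 and 3. Sham replicate 3 was 24.8 times the higher of the other sham libraries, and the lowest OHT library was 3.06 times sham replicate 3, so the groups did not overlap. The log2 difference was 5.26 with every sham library and 6.95 against sham replicates 1 and 2, where the OHT mean was 122 times theirs.

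The receptor genes of osteopontin differed by less than their ligand. Of 8 tested, 0 passed the threshold (limma, adjusted p of 0.572 to 0.998) and 3 were higher. The hyaluronan and osteopontin receptor Cd44 differed by 0.55, with normalised counts of 1285, 2098 and 2515 in sham and 3562, 2060 and 2906 in OHT, which overlap. The integrin subunit genes differed by 0.90 (Itga4), 0.43 (Itgb5), −0.00 (Itgav), −0.10 (Itga5), −0.18 (Itga9), −0.33 (Itgb1) and −0.73 (Itgb3), all as log2 differences.

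Igf1 encodes insulin-like growth factor 1, a secreted factor that acts on neurons and glia. In sham the normalised counts of Igf1 were 432, 418 and 4042, against 8098, 4788 and 7839 in OHT. Sham replicate 3 was 9.36 times the higher of the other sham libraries and lay just under the lowest OHT library, which was 1.18 times as high. On the log2 scale Igf1 differed by 2.90, and by 3.98 against sham replicates 1 and 2.

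The other genes of the IGF system lay on the opposite side for the most part. Of 11 receptor, binding protein and adaptor genes, 2 were higher and 9 lower, and 0 passed the threshold (limma). Their median log2 difference was −1.41, and −0.85 without sham replicate 3. Igf1r, the receptor, had normalised counts of 1222, 2276 and 1778 in sham and 159, 528 and 665 in OHT. All 3 OHT libraries were below all 3 sham libraries, sham replicate 3 included, a log2 difference of −2.15 (limma, SE 0.59, adjusted p = 0.332). DESeq2 on the recovered reads gave Igf1r an adjusted p of 0.0434. Igfbp4, a binding protein, was lower in each OHT library as well, at −0.77. Values for the other binding proteins were −2.32 (Igfbp2), −3.85 (Igfbp3), −2.37 (Igfbp5) and −1.67 (Igfbp7). Without sham replicate 3 the binding proteins were at −0.73 (Igfbp2), −2.75 (Igfbp3), −0.85 (Igfbp4), −1.46 (Igfbp5) and −1.35 (Igfbp7). With every library Igf2, Igf2r, Irs1, Irs2 and Insr were at −1.41, −1.10, −0.68, 0.76 and 0.16. The Irs1 value changed sign, to 0.19, under quantile normalization. Igfbp7 has no stable direction: it was at 0.39 with edgeR and 0.51 with DESeq2 on the recovered reads, and from −3.48 to 0.68 with a library left out. Markers of the other retinal cells were lower in the same libraries: the 8 Müller glia markers had a median log2 difference of −0.84 with 0 of 8 higher, and 4 mural cell and fibroblast markers −2.53 with 0 of 4 higher, and their part in the IGF values was not tested.

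Clec7a encodes Dectin-1, a receptor for fungal glucans that microglia carry at the surface in the disease-associated state. Clec7a had normalised counts of 11682, 8425 and 20624.5 in sham and 33815, 24386 and 34974 in OHT. It was already abundant in sham replicates 1 and 2, and it was among the members that differed least, with a log2 difference of 1.28 (1.63 without sham replicate 3). OHT stood above sham replicate 3 by 1.18 times at the lowest library. Its signalling chain gave log2 differences of 0.29 for the kinase gene Syk, 0.21 for Plcg2, −0.70 for the adaptor Card9, 0.44 for Bcl10 and 1.16 for the protease gene Malt1, and 0 of these 5 passed (limma). Card9 and Plcg2 changed sign under quantile normalization, to 0.11 and −0.08.

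Axl encodes a receptor tyrosine kinase of the TAM family, which recognises dying cells through the bridging proteins Gas6 and protein S. Axl was measured at normalised counts of 4803, 4120 and 9040 in sham and 6480, 13252 and 6099 in OHT. OHT replicate 2 alone exceeded sham replicate 3, and OHT replicates 1 and 3 were below it, so the groups overlapped. With a log2 difference of 0.52 (0.86 without sham replicate 3), Axl differed least of the members. Its ligand genes Gas6 and Pros1 differed by 0.06 and 0.03 and the related receptor Mertk, which clears photoreceptor debris, by −0.27, while Tyro3 was at −2.53 on low counts (2.76 to 158 in the 6 libraries). None of these 4 passed (limma), and Gas6 and Pros1 changed sign, to −0.29 and −0.39, under quantile normalization.

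Gpnmb encodes a transmembrane glycoprotein of lysosomes and melanosomes that marks lipid-laden macrophages. Across libraries Gpnmb had normalised counts of 1954, 1065 and 49310 in sham and 60231, 108582 and 55776 in OHT. Sham replicate 3 was 25.2 times the higher of the other sham libraries, and the lowest OHT library was 1.13 times sham replicate 3 in normalised counts (0.790 times in ppm). Gpnmb differed by 3.93 on the log2 scale, or 5.63 without that library. OHT replicate 2, the highest for Gpnmb, also had the highest sum of 6 pigment cell markers, 1525 normalised counts against 253 and 1053 in the other OHT libraries and 595 to 666 in sham, with 734 for Mlana and 212 for Tyr. Between OHT and sham 3 of these 6 markers were higher and 3 lower. Pmel was lower in each OHT library than in any sham library, at a log2 difference of −1.64. Rpe65, Ttr, Tyr and Mlana were each at 0 in at least 1 sorted library, and the part of pigment cells in the Gpnmb level was not tested.

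The MiT family of transcription factors, which drives lysosomal genes and Gpnmb, had log2 differences of 0.25 for Mitf, 0.08 for Tfe3, −0.90 for Tfeb and 1.36 for Tfec. None of the 4 passed (limma), and Tfe3 changed sign, to −0.18, under quantile normalization.

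Lgals3 encodes galectin-3, a sugar-binding protein released by activated microglia and recruited to damaged lysosomes. Its normalised counts were 1502, 655 and 14817.5 in sham and 29073, 25493 and 12779 in OHT. OHT replicate 3 was below sham replicate 3, at 0.862 times its level, so the groups overlapped, and OHT libraries spread 2.28-fold (1.71-fold in ppm). For Lgals3 the log2 difference was 3.11, and 4.41 without sham replicate 3. Among other galectins Lgals1 was nearest to it, with 446, 384 and 1093 in sham and 4199, 2062 and 1860 in OHT, a log2 difference of 2.14 (SE 0.52, limma adjusted p = 0.332), and Lgals9, Lgals8 and the galectin-3 binding protein gene Lgals3bp differed by 0.54, 0.33 and 0.48.

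Lpl encodes lipoprotein lipase, which releases fatty acids from lipoprotein triglycerides. Its normalised counts were 1123, 407 and 2883 in sham and 4318, 5347 and 6631 in OHT. In normalised counts the lowest OHT library was 1.50 times sham replicate 3, and in ppm 0.969 times, so the separation of the groups depended on the scaling. For Lpl it came to a log2 difference of 2.29, and 2.98 without sham replicate 3.

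Genes that act with lipoprotein lipase divided. Its cofactor gene Apoc2 (0, 9.2 and 79.4 in sham, 286, 83.1 and 163 in OHT) and Apoc1 (245, 72 and 534 in sham, 2015, 965 and 2763 in OHT) differed by 4.08 and 3.04. On the recovered reads Apoc2 was at 2.46 with edgeR and 2.58 with DESeq2, and Apoc1 at 2.67 and 2.76. Lipa, the lysosomal acid lipase gene, had 5336, 4650 and 11873 in sham and 13394, 15792 and 19251 in OHT, with no overlap (in ppm OHT replicate 1, at 204, was below sham replicate 3, at 279) and a log2 difference of 1.26. The lipoprotein receptor gene Vldlr was at −3.15, and Cd36, Lmf1 and Angptl4 were between −0.02 and 0.16. None of the 7 passed (limma). Cd36 and Angptl4 changed sign under quantile normalization, to −0.07 and 0.85, and Cd36 also with edgeR (−0.35) and DESeq2 (−0.25).

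Fabp5 encodes a fatty acid binding protein that carries fatty acids within the cell. Fabp5 had normalised counts of 100.2, 95.9 and 1623 in sham and 3301, 3211 and 3116 in OHT. OHT libraries differed by 1.06-fold from highest to lowest (1.64-fold in ppm), and the lowest was 1.92 times sham replicate 3 (1.32 times in ppm). Fabp5 differed by 3.67 on the log2 scale, and 5.02 without sham replicate 3.

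The related genes Fabp4 and Fabp3 were at 3.07 and 2.64 and the lipid-sensing receptor gene Pparg at 2.87, all on lower counts than Fabp5. The Pparg value ran from 0.71 to 4.07 with a library left out and was 1.24 with edgeR and 1.32 with DESeq2. For Fabp3 the values were 149, 71.0 and 529 in sham and 1648, 613 and 1372 in OHT, with no overlap. Fabp7, a glial family member, was at 0 to 44.0 normalised counts and lower in each OHT library, at −3.04, and Ppard was at −0.10 (0.46 under quantile normalization). None of these 5 passed (limma).

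Cst7 encodes cystatin F, an inhibitor of lysosomal cysteine proteases that microglia gain in degeneration. Cst7 was at normalised counts of 927, 362 and 4112 in sham and 4756, 4497 and 8225 in OHT. OHT replicates 1 and 2 were close to sham replicate 3, the lower of them 1.09 times as high (0.748 times in ppm, OHT replicate 1), and OHT replicate 3 stood above the rest. The log2 difference was 2.33, and 3.27 without sham replicate 3. Proteases that cystatin F acts on were higher by less: Ctsc by 0.62, Ctsl by 0.76, Ctsh by 1.08 and Lgmn by 0.44, and the related inhibitor gene Cst3 by 0.43. None of the 5 passed (limma), and Lgmn was at −0.03 under quantile normalization.

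Acp5 encodes tartrate-resistant acid phosphatase, the lysosomal enzyme that stains osteoclasts. Its normalised counts were 46.5, 187 and 3595 in sham and 7195, 7228 and 3695 in OHT. Sham replicate 1 held 45 reads, or 1.19 ppm (exact 95% interval 0.868 to 1.59 ppm, counting error only). In normalised counts OHT replicate 3 was 1.03 times sham replicate 3, so the separation of the groups rested on that narrow gap, while OHT replicates 1 and 2 were far above. In ppm the OHT replicates 1, 2 and 3 were at 109, 164 and 97.8, against 84.5 in sham replicate 3. The log2 difference was 4.18, and 5.93 without sham replicate 3.

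The other osteoclast genes were few in reads or differed little. Ctsk, the osteoclast collagenase, was at 0, 0 and 11 normalised counts in sham and 25, 25 and 23 in OHT. Nfatc1, Dcstamp, Ocstamp, Mmp9 and Acp2 differed by 0.29, 0.26, −0.37, −0.40 and −0.15, and Ocstamp and Mmp9 changed sign under quantile normalization, to 0.57 and 0.54, and Ocstamp also with edgeR (0.19) and DESeq2 (0.23). None of the 6 passed (limma). Over all 59 partner genes tested in the 10 partner lists, 0 passed with limma, and the median log2 difference was 0.16. At an unadjusted limma p under 0.05, 8 were higher and 3 lower (18.6% of them in either direction, beside 11.7% of all genes). With DESeq2 on the recovered reads the adjusted p was 0.00791 for Apoc1, 0.0180 for Lgals1, 0.0291 for Igfbp5 and 0.0434 for Igf1r. That fit called 250 of all 14403 genes.

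Compared per length, as ppm per kilobase of annotated exons (GENCODE M21), osteopontin RNA stood alone in OHT. Spp1 reached 1833 ± 200 (SD, n = 3), with 1623 in its lowest library, above every library of any other member. It was followed by Gpnmb at 358 ± 173, Clec7a at 290 ± 99.5 and Lgals3 at 285 ± 75.6, which overlapped. Lower came Cst7 at 133 ± 78.0, Acp5 at 72.3 ± 20.6, Fabp5 at 69.4 ± 16.8, Axl at 43.6 ± 24.1, Lpl at 29.4 ± 13.4 and Igf1 at 14.8 ± 5.40, where each neighbour in the order overlapped the next.

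The order in sham replicates 1 and 2 was different. Clec7a led their mean levels at 112 ppm per kilobase, ahead of Axl at 26.6, Spp1 at 18.8 and Lgals3 at 17.3. In sham replicate 3 the leading genes were Spp1 at 551, Gpnmb at 257, Lgals3 at 219 and Clec7a at 212. That library therefore shared the leading gene of OHT, at a lower level.

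To compare the members with microglial RNA as a whole, each was expressed relative to the median of the 12 shared microglia and macrophage genes in the same library, a scaling chosen after the data were seen. That median was itself 1.05 higher in OHT than in sham on the log2 scale. The difference that remained was 4.22 for Spp1, 3.14 for Acp5, 2.88 for Gpnmb, 2.63 for Fabp5, 2.07 for Lgals3, 1.85 for Igf1, 1.28 for Cst7, 1.24 for Lpl and 0.23 for Clec7a, and Axl changed sign to −0.53. On this scale Spp1 was the member whose OHT libraries all stayed above sham replicate 3, by 0.78 at the lowest, and for the other 9 sham replicate 3 was at or above the lowest OHT library. The median of the homeostatic genes differed by 0.06, and by −0.30 without sham replicate 3. Relative to it, with every library, the values ran from 5.21 for Spp1 to 0.46 for Axl, and Spp1 was again the member without overlap, by 0.76.

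**Figure D2:**
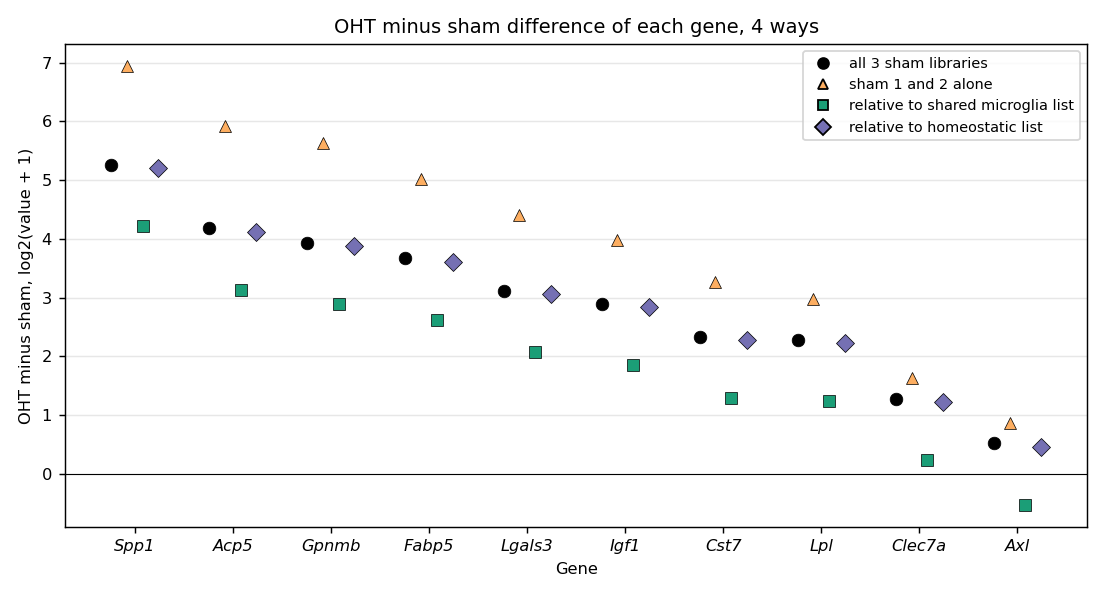
OHT minus sham difference of each gene on the log2(value + 1) scale, with every sham library, with sham replicates 1 and 2 alone, and relative to the medians of the shared and the homeostatic microglia lists. Spp1 is highest each way (4.22 to 6.95), and Axl passes below 0 (−0.53) relative to the shared list.

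The members are part of a larger set of disease-associated genes, given here beside them. Of 30 other such genes, 27 were higher and 3 lower in OHT, with a median log2 difference of 1.08 (1.23 without sham replicate 3). With limma 0 passed after adjustment, and 18 were higher and 1 lower at an unadjusted p under 0.05, beside 5.37% and 6.30% of all genes. Of the 12 shared microglia and macrophage genes, with a median of 0.77, 4 were higher and 0 lower at that p. The list of 30 was chosen with earlier results of these data known, so nothing is read from its counts. In 17 of the 30 all OHT libraries stood above all sham libraries, beside 7 of the 12 shared microglia and macrophage genes and 9.26% of all genes. Sham replicate 3 was 0.53 above sham replicates 1 and 2 at the median of the 30, where the members' median was 3.57.

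Atp6v0d2, a subunit of the lysosomal proton pump, differed most in this list. It had 0 reads in sham replicates 1 and 2, which allows up to 3.10 and 2.77 normalised counts, then 1185 in sham replicate 3 and 4735, 3451 and 1886 in OHT (log2 difference 8.21, SE 2.15, which depends on the added 1). On the recovered reads of every library its difference was 2.98 with edgeR (adjusted p = 0.567) and 3.09 with DESeq2 (SE 3.15, adjusted p = 0.720). Lyz2, the macrophage lysozyme, had 38967, 47869 and 320428 in sham and 958764, 639542 and 447696 in OHT (log2 difference 2.95, SE 0.72). For both genes limma gave an adjusted p of 0.332 with every library, and 0.000512 for Atp6v0d2 and 0.0109 for Lyz2 once sham replicate 3 was left out, a fit in which 0.119% of all genes passed as higher. DESeq2 on the recovered reads called 4 genes of the list with every library, Cd63, Lgals1, Lyz2 and Tyrobp, and 0.375% of all genes as higher.

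Next were Lgals1, at 2.14, and the tetraspanin Cd63, at 1.93 (SE 0.45). At the other end were −1.0 for the adhesion molecule Cadm1, −0.31 for Hif1a and Ank, and 0.55 for Serpine2. Cadm1 was lower in each OHT library than in any sham library: it had 10961, 17336.5 and 15817 normalised counts in sham and 8267, 10781 and 4223 in OHT.

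Homeostatic genes overlapped between OHT and sham, with 0 of 12 at an unadjusted p under 0.05 (smallest limma adjusted p 0.504). Their median log2 difference was 0.04, and it was −0.17 without sham replicate 3 and −0.28 under quantile normalization. P2ry12, the purine receptor of surveying microglia, had 100870, 71458 and 29345 in sham and 94730, 51842 and 45137 in OHT. For Tmem119 the values were 95724, 76411 and 35927 in sham and 57260, 70085 and 25006 in OHT. Among the largest differences were 0.59 for Mef2c, 0.44 for Siglech and 0.30 for Gpr34. The smallest were −0.46 for Tmem119, −0.20 for Csf1r and Selplg, and 0.02 for P2ry12 (−0.49 without sham replicate 3). Of these Siglech, Gpr34 and P2ry12 changed sign under quantile normalization.

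Sham replicate 3, high for the members, was low for these genes. It was the lowest sham library for 11 of the 12, beside 4163 of 14403 genes, and the lowest of the 6 sorted libraries for 8 of the 12, beside 1374 of 14403. Its median difference from sham replicates 1 and 2 was −0.80 for the homeostatic genes and 0.09 for the 12 shared genes. The shared genes differed between OHT and sham by a median of 0.77, from 1.55 for Fcer1g, 1.50 for Cyba, 1.46 for Aif1 and 0.94 for Ctss down to −0.85 for Spi1, −0.18 for C1qc, −0.01 for Irf8 and 0.09 for Itgam (−0.30 under quantile normalization), and 0 passed (limma). On the recovered reads Spi1 and C1qc turned to 0.13 and 0.60 with edgeR and to 0.21 and 0.69 with DESeq2.

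**Figure D3:**
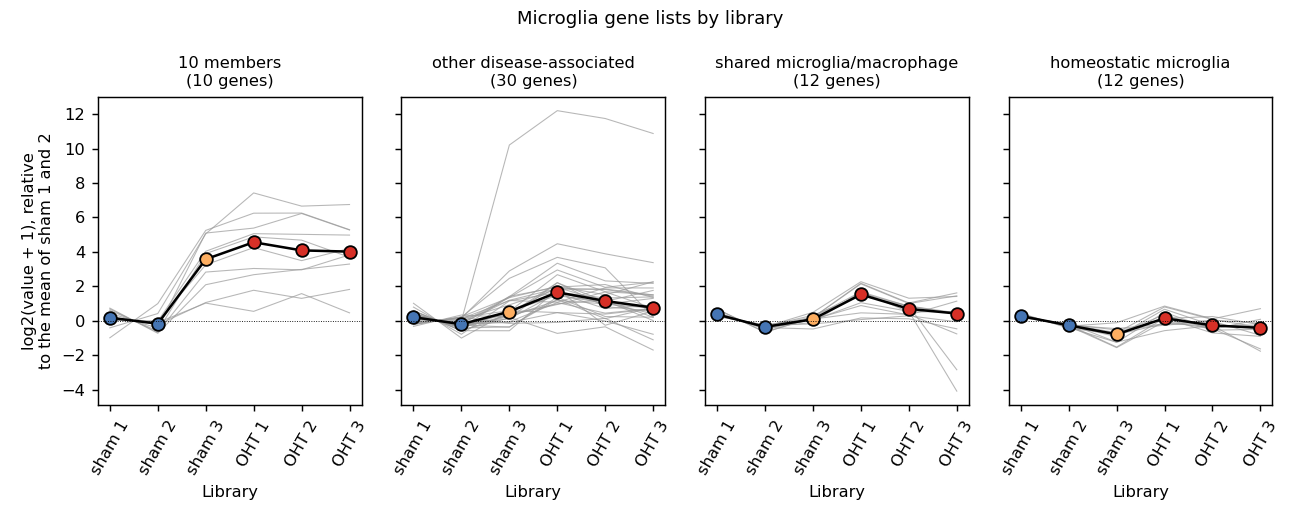
Level of the members and of 3 other microglia gene lists in each sorted library, as log2(value + 1) relative to the mean of sham replicates 1 and 2. Thin lines are genes and thick lines with points are list medians, and sham replicate 3 lies high for the members (median 3.57) and low for the homeostatic genes (median −0.80).

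Blood-derived cells and border macrophages could carry the same genes. A monocyte and neutrophil list of 5 genes summed to 318, 198 and 2010 normalised counts in sham and 1422, 1943 and 1490 in OHT, so sham replicate 3 was the highest of the 6. Most of that sum in sham replicate 3 and in OHT replicates 2 and 3 was the monocyte receptor gene Ccr2, at 55, 74 and 1541 in sham and 598, 1543 and 1272 in OHT, while Ly6c2 was at 2 to 249 and S100a8 at 0 to 30 across the 6 libraries. Border macrophage markers summed to 25274, 25644 and 48355 in sham and 142689, 54006 and 78264 in OHT. The part of these cells in the members' levels was not tested.

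Among border macrophage genes Ms4a7 differed most, with 4891, 4595 and 22079 in sham and 96975, 38427 and 35070 in OHT (log2 difference 2.68, limma adjusted p = 0.332). Its adjusted p was 0.0175 with limma once sham replicate 3 was left out, and 0.0121 with DESeq2 on the recovered reads of every library. Pf4, Mrc1 and Stab1 differed by 1.05, 0.56 and 0.54, and Lyve1, Cd163, Cbr2 and F13a1 by −0.20, −0.03, 0.01 and 0.11. Of these Cbr2 and F13a1 changed sign under another scaling, to 0.64 and −0.25 with quantile normalization. None of the 8 passed with every library (limma).

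Genes whose levels followed Spp1 most closely were sought by Pearson's r of log2(value + 1) over the 6 sorted libraries, among 11531 genes averaging 100 or more normalised counts. The 10 closest were Mrps23 (0.997), Cd300ld (0.994), Mmp12 (0.993), Cd5l (0.993), Lyz2 (0.992), Fabp5 (0.992), Fcho1 (0.992), Anxa4 (0.991), Lilrb4b (0.991) and Igf1 (0.988). With 6 points that share the sham and OHT groups and their depth, r is a description. The members, Spp1 included, were chosen for high values in OHT and in sham replicate 3. Their ranks follow in part from that choice, and nothing is read from them. Fabp5 and Igf1 are the members in this set. Next among members came Acp5 (0.978, rank 27), Gpnmb (0.961, rank 48), Lgals3 (0.952, rank 64), Clec7a (0.947, rank 71), Cst7 (0.918, rank 149), Lpl (0.910, rank 168) and, far behind, Axl (0.674, rank 1343).

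A close pattern did not mean a large difference. Mrps23, a mitochondrial ribosome protein gene with the highest r, differed by 0.60 on the log2 scale. Mmp12, the macrophage elastase, had 329, 332 and 1681 normalised counts in sham and 2591, 2581 and 2414 in OHT. Cd5l, a secreted macrophage protein gene, had 0 reads in sham replicates 1 and 2, then 169 in sham replicate 3 and 1027, 601 and 341 in OHT.

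Levels of the members ranged widely in the primary cultures. Cst7, at 0 to 3 reads, was near the detection limit, and Clec7a had 6 reads in culture 2. Shares of each library's total are set side by side here without a test, because the tables were normalised separately. Axl was the most abundant, at 1650, 2732 and 2366 ppm in cultures 1, 2 and 3, a mean 12 times the OHT mean of 187 ppm. Spp1 was at 517, 266 and 352 ppm (OHT mean 3020), Lgals3 at 285, 300.3 and 310.0 ppm (OHT mean 453), Gpnmb at 218, 214 and 204 ppm (OHT mean 1618), Fabp5 at 117, 61.4 and 54.3 ppm (OHT mean 68.5) and Igf1 at 52.7, 50.4 and 53.8 ppm (OHT mean 146).

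The other 4 members were lower in culture. Lpl was at 10.4, 8.75 and 8.30 ppm (OHT mean 121) and Acp5 at 1.89, 2.97 and 2.05 ppm (OHT mean 124). Clec7a was at 0.648, 0.0793 and 0.404 ppm (OHT mean 664). Cst7 had 0, 1 and 3 reads in the cultures, and the 0 allows up to 0.0452 ppm (OHT mean 131).

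Per kilobase the culture order was Axl at 525 ppm, Spp1 at 230, Lgals3 at 188, Fabp5 at 78.6 and Gpnmb at 46.9. Markers in the cultures differed from those of the sorted libraries. The 8 Müller glia markers summed to 227, 305 and 388 ppm, with Rlbp1, the Müller retinaldehyde-binding protein gene, at 2.3, 2.8 and 1.6 ppm. The 12 shared microglia genes summed to 425, 466 and 459 ppm, nearly all of it Cyba, and Aif1 was at 0.1 to 0.2 ppm. Mural cell and fibroblast markers summed to 17614, 16531 and 14899 ppm, led by the actin gene Acta2, and the part of these cells in the culture levels of Axl and Spp1 was not tested.

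**Figure D4:**
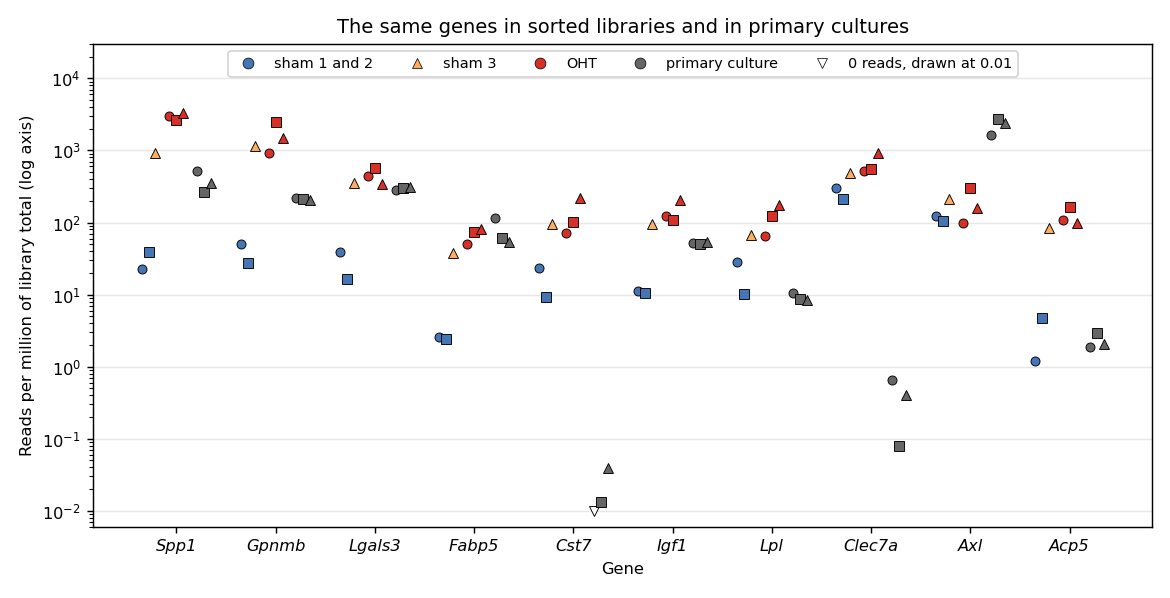
Level of each gene as ppm of the library total, on a log axis, in sham replicates 1 and 2, sham replicate 3, OHT and primary cultures, with 1 point for each library. Axl is highest in culture (1650 to 2732 ppm), Spp1 is highest in OHT, and Cst7 and Clec7a are under 1 ppm in every culture.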

How the data were processed

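RNA was amplified with SMARTer v4, prepared with KAPA HyperPrep and sequenced as 150 bp pairs, per the labels' protocols. The submitters' processing notes name bcl2fastq 2.20, Trim Galore 0.6.6, FastQC 0.11.9, STAR 2.7.1a and the build mm39; for the counter, the annotation and the size factors the sources used here name no tool. The authors deposited a signal per gene and library, counts divided by a size factor, in 1 table for sorted cells and another for cultures. Whole reads were recovered from the steps between low values (within 0.05 of a read for all sorted values). Members and lists were chosen with earlier results of these data known. Genes averaging 10 or more were fitted with limma 3.58.1 (trend) on log2(value + 1), 3 sham against 3 OHT libraries, with Benjamini-Hochberg adjustment at 0.05. Alternatives were edgeR 4.0.16 and DESeq2 1.42.0 on the recovered reads, TMM, quantile and library-total scaling, pseudocounts 0.5 and 10, no filter on low values, a replicate block and each library left out. Simulated data were used to test the scripts. The text names all members, partner genes averaging 10 or more, the 4 largest and 4 smallest differences of each microglia and macrophage list, the 10 genes nearest to Spp1, and defining cell markers; 1 gene that this rule names is not reported here. Exon lengths are from GENCODE M21 and carry no coordinates of the authors' build; promoters are from RefSeq on GRCm38.p6.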

Additional observations from a re-analysis of the deposited data

How the results depend on the processing

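The count of genes past the threshold was 0 with limma and 0 with edgeR (1575 at an unadjusted p under 0.05). It was 250 with DESeq2 (54 higher, 196 lower), 2 with a replicate block (1 higher, 1 lower), and 0 to 17 when each library was left out, with 12 without sham replicate 1 (all lower) and 17 without sham replicate 3 (all higher). The cause was not tested. Of the 30 other disease-associated genes, 0 passed with limma and with the replicate block, 4 with DESeq2 (Cd63, Lgals1, Lyz2 and Tyrobp, adjusted p of 0.0180 to 0.0329), and 0 to 2 with a library left out, the 2 being Atp6v0d2 and Lyz2 without sham replicate 3. Same-numbered libraries correlated in their deviations from group means at −0.05 to 0.08, so the numbers were not taken to pair them. Relative to the shared microglia list, a scaling added after the data were seen, Axl reversed to −0.53, Clec7a moved to 0.23 and Lpl to 1.24. The other 137 of 140 member values under alternatives kept direction within 1 SD. That SD is wide, 2.10 for Spp1, so its 6.95 without sham replicate 3 counted as within 1 SD of 5.26. The replicate block cannot move a difference at all, so little is read from this count. Scaled to library totals, also added later, Spp1 was at 5.02 and Axl at 0.27. Over the alternatives Spp1 ran from 4.21 to 6.95 and Axl from −0.53 to 0.86. With 3 pools in each group and sham replicate 3 far from the other sham libraries for the members, the sham SD exceeds the mean for 7 of the 10, and the precision is set by the number of pools, not by depth.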

Other observations

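Cell cycle genes overlapped between the groups. A list of 5 proliferation genes summed to 2705, 757 and 3101 normalised counts in sham and to 2211, 11820 and 757 in OHT replicates 1, 2 and 3, so OHT replicate 2 stood above the rest. In that library Top2a, the DNA topoisomerase of dividing cells, was at 2856 and Mki67 at 2397. OHT replicate 2 was also the highest library for Gpnmb and Axl.

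Neuronal and glial markers varied within sham as well. Rod markers summed to 89100, 892956 and 768164 normalised counts in sham replicates 1, 2 and 3 and to 44771, 40578 and 106583 in OHT. Astrocyte markers summed to 15731, 97336 and 102187 in sham and to 17663, 11666 and 22167 in OHT. For these lists sham replicate 3 was close to sham replicate 2 and sham replicate 1 was close to OHT, whereas for the members sham replicates 1 and 2 were the pair that lay together.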
